A study of Homo sapiens with 12 samples.

Results

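The FOS family comprises 4 genes, FOS, FOSB, FOSL1 and FOSL2, and the accessible chromatin around them was described here in KO-52 cells by ATAC-seq, in which the Tn5 transposase cuts open chromatin. Each gene body with 50 kb on each side formed a window, and peaks of the 6 deposited lists that overlapped or adjoined were joined into common regions. Of 355394 common regions on chromosomes 1 to 22, X and Y, 142 lay in the 4 windows, 36 around FOS, 36 around FOSB, 34 around FOSL1 and 36 around FOSL2. The genes were taken from GENCODE release 44 on hg38: FOS on chromosome 14 from 75278826 to 75282230 (forward strand), FOSB on chromosome 19 from 45467995 to 45475179 (forward), FOSL1 on chromosome 11 from 65892049 to 65900573 (reverse) and FOSL2 on chromosome 2 from 28392448 to 28417317 (forward). Regions are named by the distance of their summit from the annotated start of the gene, with positive values in the direction of transcription.

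KO-52 is an acute myeloid leukaemia cell line with mutations in both CEBPA alleles, and every group carried them. CEBPA encodes C/EBP-alpha, made as the full-length p42 and as the shorter p30, which lacks the N-terminal part of the protein. The cells held an empty vector (EV), p42 or p30. Per the study's methods, lasting expression in this line came from p42 and p30 fused to ERT2, a receptor domain that holds its partner outside the nucleus until tamoxifen binds, and transduced cells were sorted by their GFP. The general culture methods state that such cells, and empty vector controls, received the active form of tamoxifen the day before an experiment. Each line received DMSO or tunicamycin, a blocker of N-glycosylation that causes endoplasmic reticulum stress, at 2 µg/mL for 8 h. These 6 conditions in duplicate made 12 libraries of 50000 nuclei each, but peaks had been called on both replicates of a condition together. Each condition was therefore 1 list, no test between conditions could be made, and all differences below are descriptions of the lists.

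FOS proteins are basic leucine zipper factors. They do not pair with each other but form AP-1 with JUN, JUNB or JUND, and AP-1 binds the TRE motif TGACTCA. FOS and FOSB are immediate early genes, switched on within minutes by serum response factor (SRF) and its ETS partners at a CArG box and by CREB at a CRE. FOSL1 and FOSL2 are induced later, and AP-1 itself acts on FOSL1. C/EBP proteins can also pair with AP-1 proteins on the composite CEBP:AP1 motif TGTTGCAA. In myeloid cells AP-1 acts in monocyte differentiation and in the inflammatory response.

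The RefSeq promoters of 3 members are shown for the motifs of these regulators, and are printed 5′ to 3′ from 250 bases before to 50 after the RefSeq start (GRCh38.p14, forward strand). Capitals mark the CRE core TGACG, the GC box GGGCGG and the TRE, on either strand.
FOS promoter, chr14:75278578-75278877: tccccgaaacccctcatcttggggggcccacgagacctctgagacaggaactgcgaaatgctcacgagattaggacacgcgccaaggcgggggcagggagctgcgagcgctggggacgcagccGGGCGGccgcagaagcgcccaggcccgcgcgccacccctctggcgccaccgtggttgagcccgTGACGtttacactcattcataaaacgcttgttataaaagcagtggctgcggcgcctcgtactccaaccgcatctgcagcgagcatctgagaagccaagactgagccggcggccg
FOSB promoter, chr19:45467746-45468045: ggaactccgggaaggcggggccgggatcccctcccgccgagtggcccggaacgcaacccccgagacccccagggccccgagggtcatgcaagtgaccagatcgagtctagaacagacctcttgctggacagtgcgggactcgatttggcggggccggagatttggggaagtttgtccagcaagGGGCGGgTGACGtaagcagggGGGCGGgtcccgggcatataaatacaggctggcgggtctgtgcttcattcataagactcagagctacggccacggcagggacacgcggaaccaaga
FOSL2 promoter, chr2:28392608-28392907: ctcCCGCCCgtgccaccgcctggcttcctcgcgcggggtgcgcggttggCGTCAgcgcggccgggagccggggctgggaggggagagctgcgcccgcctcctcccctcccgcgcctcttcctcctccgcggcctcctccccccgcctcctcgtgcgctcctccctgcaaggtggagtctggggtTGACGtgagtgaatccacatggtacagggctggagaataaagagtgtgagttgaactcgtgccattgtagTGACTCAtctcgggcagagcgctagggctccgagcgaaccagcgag
The CRE core stood in all 3 of these promoters, and 24.55% of 35116 RefSeq promoters held it. A GC box was likewise present in all 3, against 44.95% of promoters. The TRE was found in the FOSL2 promoter, against 4.95% of promoters. The FOSL1 entry was not matched.

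The FOS promoter peak had its summit upstream of that stretch, and the 201 bases around it are shown because they hold a CArG box, the SRF element, in capitals.
FOS -0.3 kb, chr14:75278409-75278609: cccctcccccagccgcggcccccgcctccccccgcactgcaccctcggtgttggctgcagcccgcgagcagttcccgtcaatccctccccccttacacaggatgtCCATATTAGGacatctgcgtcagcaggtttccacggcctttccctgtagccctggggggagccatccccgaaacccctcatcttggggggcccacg
The box CCATATTAGG lay at chr14:75278514-75278523, its centre 10 bp downstream of the summit, and 1.09% of all regions had a CArG box within 100 bp of the summit. A TGACG core was also found on the reverse strand on each side of it, 23 bp upstream and 24 bp downstream of the summit.

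Some distal regions are shown, chosen where the CEBP:AP1 motif was found, where p42 stood apart from the other lines, or where the isoforms differed after tunicamycin (hg38, forward strand, 201 bases around the summit). Capitals mark CEBP:AP1, the TRE and the C/EBP motif TTGCNNAA.
FOS -9.8 kb, chr14:75268895-75269095: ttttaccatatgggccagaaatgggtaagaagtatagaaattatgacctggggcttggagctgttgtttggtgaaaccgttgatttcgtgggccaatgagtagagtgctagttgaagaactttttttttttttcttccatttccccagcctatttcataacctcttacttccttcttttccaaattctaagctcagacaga
FOS -3.8 kb, chr14:75274910-75275110: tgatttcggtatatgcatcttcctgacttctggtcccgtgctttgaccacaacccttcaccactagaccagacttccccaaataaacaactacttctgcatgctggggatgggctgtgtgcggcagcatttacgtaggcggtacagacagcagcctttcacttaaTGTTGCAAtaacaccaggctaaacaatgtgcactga
FOS +20.4 kb, chr14:75299164-75299364: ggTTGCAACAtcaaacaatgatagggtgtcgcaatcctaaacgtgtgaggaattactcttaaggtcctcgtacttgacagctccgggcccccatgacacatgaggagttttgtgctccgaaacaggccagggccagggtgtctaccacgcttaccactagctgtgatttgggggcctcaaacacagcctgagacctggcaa
FOSB -40.2 kb, chr19:45427687-45427887: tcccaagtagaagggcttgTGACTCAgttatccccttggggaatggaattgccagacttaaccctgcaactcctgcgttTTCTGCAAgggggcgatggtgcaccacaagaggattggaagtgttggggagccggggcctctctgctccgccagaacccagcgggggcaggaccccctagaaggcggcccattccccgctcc
FOSL2 -13.9 kb, chr2:28378470-28378670: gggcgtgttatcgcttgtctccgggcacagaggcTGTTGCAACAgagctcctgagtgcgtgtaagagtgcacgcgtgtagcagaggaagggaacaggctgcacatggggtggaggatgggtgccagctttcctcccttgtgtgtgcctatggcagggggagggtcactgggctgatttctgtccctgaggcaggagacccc
FOSL2 +17.0 kb, chr2:28409361-28409561: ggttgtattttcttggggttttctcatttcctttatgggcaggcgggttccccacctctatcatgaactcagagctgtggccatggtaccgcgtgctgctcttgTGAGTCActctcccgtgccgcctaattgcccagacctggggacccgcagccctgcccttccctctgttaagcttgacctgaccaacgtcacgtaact

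The lists held 187704 to 254239 peaks and stood for an estimated 22250000 to 29980000 tags, with p42 in DMSO the longest and deepest and EV in DMSO the shortest and shallowest. Since the call of a weak peak depends on depth, strength was given within a list, as the percentile of a region's strongest peak by −log10 q among all peaks of that list, and between lists as tags at the summit, the deposited fold and p being solved for that number, per 10 M tags of the list. A percentile is a rank within a list, and the lists were of unequal length. Over all regions with a peak in both lists, the median percentile difference in DMSO was 3.16 points for p42 minus p30. It was 6.0 points for p42 minus EV and 1.73 for p30 minus EV. After tunicamycin it was 2.21 points for p42 minus p30. Percentile differences between lines are to be read against these values. Plain tag numbers below are raw counts from lists of unequal depth, so that equal numbers are lower per 10 M tags in a deeper list. Tag intervals are exact 95% Poisson intervals and, like the 95% Wilson intervals of shares, cover counting error only. In bulk cells, fewer cells with an open site and less cutting per cell cannot be told apart. Promoters were examined at 1 annotated start per gene, so that other promoters of a gene are not covered. Of 8 blood and myeloid marker genes, 6 had a promoter peak in all 6 lists there, CSF1R had none and RUNX1 had one in the p42 DMSO list. The RUNX1 window held 207 regions. Among genes of other cell types, EPCAM and CDH5 had none, ALB had one in p42 DMSO, and CD3E and COL1A1 had one in all 6, so that a promoter peak did not mark the cell type here.

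Chromatin around the FOS family was mostly shared between conditions. A peak was present in all 6 lists in 81 of the 142 regions (57.0%), against 32.2% of all common regions, and in a single list in 26 (18.3%), against 34.2%. The number shared by all 6 lists was 18 around FOS and 21 around each of FOSB, FOSL1 and FOSL2. The regions had a median width of 255.5 bp and a median GC content of 56.0%, against 147 bp and 45.8% over all regions. They were also stronger, with a median percentile between 64.0 and 70.0 in the 6 lists, against 50.46 to 52.05 over all regions. Whether the strength of the regions bears on the shares of regions called in all lists or in 1 list was not tested. Own promoters accounted for 8 regions, promoters of other genes for 25, exons for 14, introns for 40 and intergenic sequence for 55. The surroundings of the members differed. Around FOS, 23 of 36 regions were intergenic, with non-coding RNA genes and LINC01220 as neighbours. The FOSB window had no intergenic region, since FOSB lies inside the annotated body of the DNA repair gene ERCC1, on the opposite strand, and close to RTN2, PPM1N and VASP. The FOSL1 window held promoter regions of MUS81, EFEMP2, CTSW, FIBP, CCDC85B, C11orf68 and DRAP1, and the FOSL2 window those of FOSL2-AS1, PLB1 and the non-coding ENSG00000227938. Many of the regions thus lie over other genes.

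All 4 genes had a promoter peak in every list. At the FOS promoter, the p42, p30 and EV lists held 45, 43 and 31 summit tags in DMSO and 37, 36 and 39 after tunicamycin. Per 10 M tags this was 15.0, 16.2 and 13.9 in DMSO and 14.5, 15.6 and 15.5 after tunicamycin. The FOS promoter thus lay in a narrow range, and the interval of each value covered the other 5. The percentile varied more, since the EV DMSO list placed the region at 77.2 and the other 5 lists between 81.9 and 90.3. Against EV in DMSO, the tag ratio was 1.08 for p42 (0.667 to 1.76) and 1.16 for p30 (0.716 to 1.91).

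FOSB had a weak peak over its start and a strong one 1.3 kb downstream, which reached to within 1 kb of the start. At the start the summit held 21, 25 and 18 tags in p42, p30 and EV in DMSO and 23, 20 and 21 after tunicamycin, at percentiles between 54.5 and 70.1. In the region at +1.3 kb there were 43, 35 and 35 tags in DMSO and 37, 37 and 36 after tunicamycin, at percentiles between 86.5 and 92.1. The p42 to p30 ratio in DMSO was 0.743 (0.396 to 1.38) at the start and 1.09 (0.680 to 1.75) at +1.3 kb, so the direction differed between the 2 regions and both intervals held 1.

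At the FOSL1 start there were 28, 31 and 25 summit tags in p42, p30 and EV in DMSO and 32, 28 and 31 after tunicamycin, at percentiles between 76.9 and 87.0. Scaled to depth, this was 9.34, 11.7 and 11.2 per 10 M tags in DMSO and 12.6, 12.1 and 12.3 after tunicamycin. A second FOSL1 region at +1.2 kb, inside the gene, had 21, 20 and 20 tags in DMSO and 20, 17 and 24 after tunicamycin. Its summit sat 2 bp from a TRE, TGACTCA at chr11:65899386-65899392. The 6 lists placed it between percentiles 54.6 and 70.8, below the start in each of them. A further region at +0.6 kb was called in the p42 and EV tunicamycin lists only, with 9 and 11 tags.

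At the FOSL2 start the summit held 48, 44 and 40 tags in p42, p30 and EV in DMSO and 40, 48 and 50 after tunicamycin. Per 10 M tags, these were 16.0, 16.6 and 18.0 in DMSO and 15.7, 20.8 and 19.9 after tunicamycin. The p42 tunicamycin list was the lowest of the 6, at a percentile of 79.7 against 88.9 in p30 and 90.6 in EV, and the p42 to p30 ratio there was 0.756 (0.484 to 1.17). A smaller region at -0.7 kb stood at percentiles 66.8, 53.1 and 54.8 with p42, p30 and EV in DMSO and at 63.6, 45.0 and 36.1 after tunicamycin. By percentile, the 2 p42 lists ranked this upstream region above the other 4, unlike the region over the start. Per 10 M tags it held 10.7, 9.8 and 11.2 with p42, p30 and EV in DMSO, so that EV was the highest there. After tunicamycin these values were 11.8, 10.4 and 8.76.

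Of 20007 protein-coding genes, 70.75% to 74.12% had a promoter peak in a given list, at a median percentile between 88.6 and 90.8. The FOSL1 promoter lay below this median in every list, between 76.9 and 87.0. That of FOS passed it in p30 DMSO only, and that of FOSL2 in EV tunicamycin only. The stronger FOSB region passed it in p42 DMSO, EV DMSO and p30 tunicamycin. The next shares are over all protein-coding genes, those without a promoter peak included. The strongest FOS promoter region stood above 49.2% to 65.4% of these genes, and that of FOSB above 58.1% to 68.5%. That of FOSL1 stood above 45.2% to 57.2%, and that of FOSL2 above 47.7% to 66.8%. By the mean absolute difference in percentile over the 6 lists, the gene with the promoter pattern nearest to FOS was MAP3K5 (1.23 points), to FOSB LRRC41 and UQCRH, which share a promoter region (0.463 points), to FOSL1 RIMS2 and ENSG00000285982, which also share one (1.3 points), and to FOSL2 FAM111A (1.21 points). The measure rests on 6 lists, which differ in depth.

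The comparison of p42 with p30 in DMSO asks which sites differ between the isoforms. Of 125 regions with a peak in either list, 25 (20.0%, 13.9% to 27.9%) had one in p42 cells only, against 30.8% of all regions. A peak in p30 cells only was found in 8 (6.40%, 3.28% to 12.1%), against 14.5% of all regions. The order p42 above p30 was thus that of the whole genome, and both shares were smaller in the windows. By window, p42-only and p30-only regions numbered 10 and 2 around FOS, 6 and 1 around FOSB, 4 and 2 around FOSL1 and 5 and 3 around FOSL2. In the FOS window the p42-only share was 32.3% (18.6% to 49.9%), close to that of all regions. Peaks of 1 list were weak, with a median percentile of 28.7 for the p42-only and 13.2 for the p30-only ones. The p42 list was also the deeper of the pair. With lists of equal size the shares were 14.3% for p42 only and 8.04% for p30 only, in the same order. Here and below, shares of all regions are not given for lists of equal size, so these values are not compared with the genome.

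Where both lists had a peak, p42 cells ranked the region higher in 62 of 92 (67.4%), against 61.8% of all regions. The share was 10 of 19 around FOS, 21 of 26 around FOSB, 18 of 24 around FOSL1 and 13 of 23 around FOSL2. By summit tags scaled to depth, 4 of the 92 regions were at least 1.5-fold higher in p42, against 9.97% of all regions, and 7 were at least 1.5-fold higher in p30, against 12.6%. With median-ratio scaling these numbers were 5 (all regions 11.7%) and 3 (10.2%), so the order of the directions turned with the scaling, in the windows and over all regions.

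Against EV in DMSO, p42 cells had a peak without one in EV in 25 of 124 regions (20.2%), against 35.4% of all regions, and EV cells without one in p42 in 7 (5.65%), against 11.2%. None of those 7 lay in the FOSB window and 5 lay around FOSL2. For p30 against EV, 11 of 110 regions (10.0%) had a peak in p30 only, against 22.4% of all regions, and 10 (9.09%) in EV only, against 13.7%. With lists of equal size the p42-only share was 12.4% and the EV-only share was 8.85%, while for p30 against EV the order turned, with 9.17% in p30 only and 11.9% in EV only. Scaling to depth left the median of all shared regions at -0.17 (log2) for p42 against EV and at -0.12 for p30 against EV, so that tag ratios against EV are read relative to these values. At least 1.5-fold higher summit tags were found in 3 of 92 regions in p42 (all regions 5.77%) and in 5 in EV (18.8%). For p30 against EV it was 0 of 89 regions in p30 (3.45%) and 6 in EV (10.4%). With median-ratio scaling the counts were 7 (all regions 11.4%) and 2 (10.9%) for p42 against EV and 3 (5.79%) and 2 (6.68%) for p30 against EV.

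After tunicamycin, 18 of 117 regions (15.4%) were called with p42 but not with p30, against 26.1% of all regions, and 12 (10.3%) the reverse, against 15.1%. This order turned with lists of equal size, to 8.33% for p42 only and 13.9% for p30 only. Of 87 regions with a peak in both, 6 were at least 1.5-fold higher in p42 (all regions 9.22%) and 5 in p30 (11.9%). With median-ratio scaling these were 8 (11.1%) and 3 (9.54%).

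**Figure D1:**
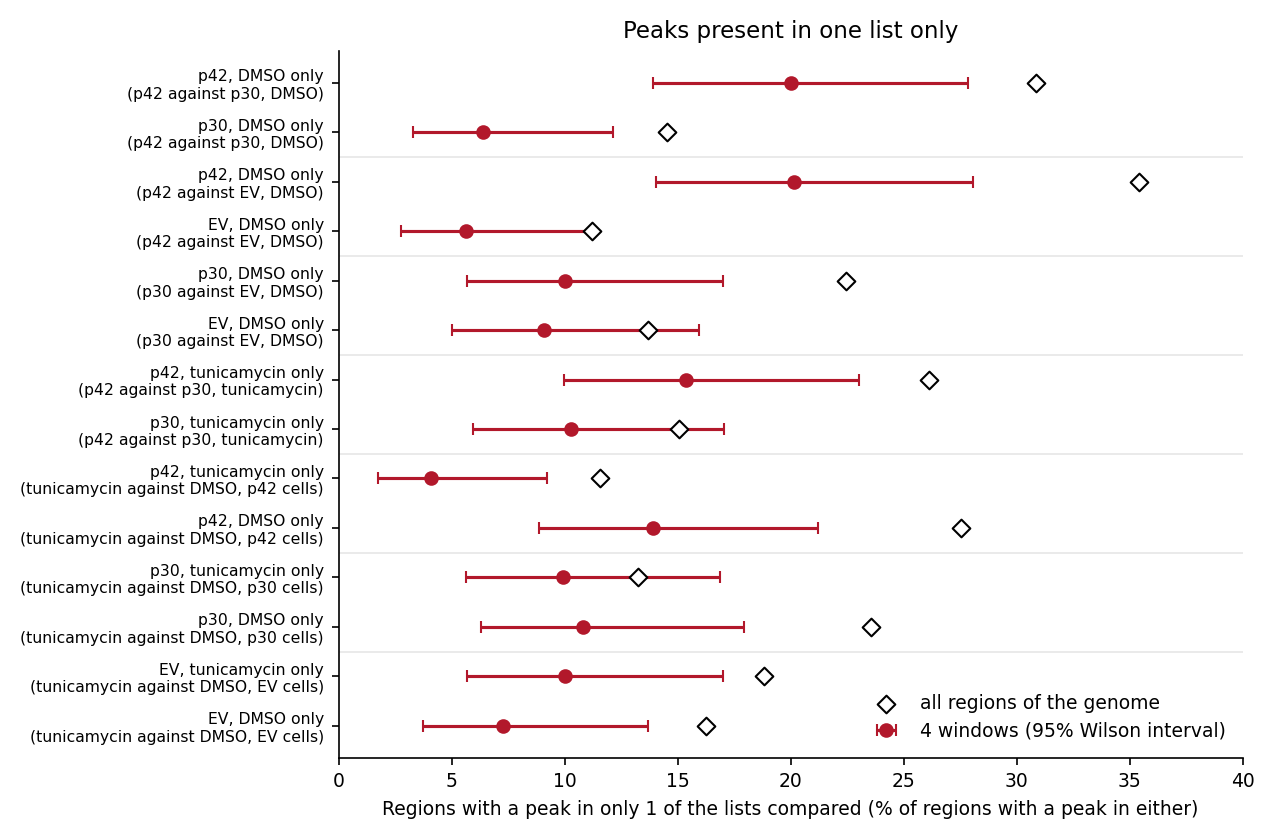
For each pair of lists, the share of regions with a peak in only 1 of the 2 lists (x, percent of regions with a peak in either) is plotted for the 4 windows together (circles, 95% Wilson interval) and for all regions (diamonds). The windows lie below all regions in each of the 14 rows, from 4.10% against 11.6% for peaks gained with tunicamycin in p42 to 20.2% against 35.4% for p42 against EV. The interval holds the value of all regions for EV only against p30 in DMSO and for p30 only against p42 after tunicamycin. It also does for peaks gained with tunicamycin in p30.

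Distal regions of the FOS window went from invariant to p42 only. The 3 strongest, at -19.7 kb over the promoters of 2 non-coding RNA genes, at -3.8 kb and at +15.4 kb over the promoter of LINC01220, stood between percentiles 91.6 and 99.5 in all 6 lists. The -3.8 kb region carries the CEBP:AP1 match printed above, and its summit held 49, 45 and 44 tags in p42, p30 and EV in DMSO and 47, 43 and 47 after tunicamycin. No line stood apart there. The region at +15.4 kb holds a second CArG box, CCATATTTGG, 92 bp downstream of its summit.

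The -9.8 kb region of FOS lies over the promoter of the non-coding ENSG00000258740. Its summit held 22, 11 and 7 tags with p42, p30 and EV in DMSO, and 17 with p42 and 10 with EV after tunicamycin, when p30 cells had no peak. Both p42 lists were the highest. The p42 to p30 ratio in DMSO was 1.77 (0.823 to 4.04), an interval that held 1. None of the listed motifs was found in its 201 bases. At +24.9 kb, p42 cells had 29 and 28 tags in DMSO and tunicamycin, p30 cells 22 and 20 and EV cells 15 and 18, the same order of lines under both treatments. The +20.4 kb region with the CEBP:AP1 match was called in the p42 lists only, with 17 tags in DMSO and 19 after tunicamycin. At +36.6 kb a peak was called in the p30 lists only, with 9 and 6 tags, and at +40.4 kb in the p42 lists only, with 7 and 5. Of the regions called with both isoforms, p42 had the lowest percentile relative to p30 in DMSO at +4.9 kb (19 against 23 tags) and -48.2 kb (12 against 17), while +5.3 kb went the other way (28 against 19).

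In the FOSB window, the largest difference lay at -40.2 kb in an intron of ERCC1, where p42 cells had 28 tags in DMSO and 26 after tunicamycin. EV cells had 13 and 14 tags there, and p30 cells had no peak in DMSO and 11 tags after tunicamycin. Both p42 lists put the region at percentile 74.5 or above and the other 4 at 26.6 or below. The tunicamycin ratio of p42 to p30 was 2.14 (1.02 to 4.81). A TRE lies 78 bp upstream and a C/EBP motif 17 bp upstream of its summit. The TRE, at chr19:45427706-45427712, lies outside the called region, which starts at 45427719. At +25.7 kb in an intron of PPM1N, p42 cells had 18 and 17 tags, p30 cells 9 in DMSO and no peak after tunicamycin, and EV cells 9 and 12. The -36.8 kb region, with a CEBP:AP1 match 7 bp from its summit, had 16 and 15 tags in p42, 10 and 10 in p30 and 13 and 14 in EV, so that p30 was the lowest under both treatments. At +9.9 and +30.9 kb a peak was called in the p42 lists only, with 8 to 12 tags. Over the FOS family windows together, 7 of 142 regions (4.93%) were called in both p42 lists and in no other. The share of all regions was close to this, at 4.58%. The strongest regions of the window, at +55.9 kb in an exon of VASP and at +17.5 kb in an exon of RTN2, stood between percentiles 96.2 and 99.8 in all 6 lists.

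In the FOSL1 window, the EFEMP2 promoter at +26.9 kb held 42 and 38 tags in p42 in DMSO and tunicamycin, 27 and 25 in p30 and 25 and 27 in EV. Both p42 lists put it above percentile 91.4 and the other 4 at 76.0 or below. The p42 to p30 ratio was 1.38 under both treatments (0.829 to 2.32 in DMSO and 0.811 to 2.38 after tunicamycin). At +49.1 kb in an intron of CFL1, the actin-severing cofilin, p42 cells had 18 tags in DMSO and 25 after tunicamycin, p30 cells 14 and 8, and EV cells 10 and 10. The tunicamycin ratio of p42 to p30 was 2.84 (1.24 to 7.27), and that in DMSO was 1.14 (0.535 to 2.47). Just downstream of FOSL1, at +8.6 kb, a peak was called in p42 in both treatments with 29 and 21 tags, in p30 in DMSO with 20 and in EV after tunicamycin with 18. Beside the FIBP promoter, the weaker region at +11.5 kb had 23 tags in p42 and 31 in p30 in DMSO and 22 and 17 after tunicamycin, so that the order of the isoforms turned with the treatment. Peaks of the p42 lists only stood at +32.8 kb and +9.4 kb, with 10 to 18 tags. The strongest regions, at +42.2 kb (MUS81 promoter), +12.0 kb (FIBP promoter) and -18.7 kb (shared promoter of C11orf68 and DRAP1), lay between percentiles 79.5 and 95.3.

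In the FOSL2 window, the -13.9 kb region with 2 overlapping CEBP:AP1 matches, 1 on each strand, held 43, 23 and 25 tags with p42, p30 and EV in DMSO and 37, 30 and 31 after tunicamycin. The p42 lists were the highest, at percentiles 92.2 and 88.1, and the p30 and EV lists lay between 64.0 and 81.2. The p42 to p30 ratio was 1.65 in DMSO (0.975 to 2.88) and 1.12 after tunicamycin (0.673 to 1.88). At +55.9 kb, where a C/EBP motif lies 15 bp from the summit, there were 25 and 23 tags in p42 in DMSO and tunicamycin, 16 and 11 in p30 and 10 and 10 in EV. The order p42, p30, EV held under both treatments. The region at +45.9 kb went the other way. It was called in the DMSO lists only, with 6 tags in p42, 8 in p30 and 17 in EV, and the ratio to EV was 0.262 for p42 (0.0846 to 0.696) and 0.395 for p30 (0.147 to 0.965). At +43.0 kb p30 was the highest, with 16 and 12 tags against 9 and 8 in p42 and 9 and 11 in EV. A peak in the EV lists only was found at +73.2 kb with 5 and 6 tags, and one in the p42 lists only at +3.3 kb with 20 and 16. At -13.3 kb, beside the -13.9 kb region, the isoforms had the opposite order to it in DMSO, with 22 tags in p42 and 32 in p30, and 23 and 28 after tunicamycin.

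Inside FOSL2, an intronic region at +17.0 kb with a TRE 7 bp from its summit held 31, 36 and 32 tags in p42, p30 and EV in DMSO. After tunicamycin it held 23, 44 and 45. The lines were thus close in DMSO, at percentiles 75.95, 80.5 and 77.4, and p42 stood below the other lines after tunicamycin, at 63.2 against 91.4 and 92.7. The tunicamycin ratio of p42 to p30 was 0.474 (0.273 to 0.802), and the change with tunicamycin was 0.874-fold in p42 (0.487 to 1.55), 1.41-fold in p30 (0.884 to 2.25) and 1.24-fold in EV (0.774 to 2.03). The region over the FOSL2 start had the same order of lines after tunicamycin, and that at -0.7 kb the reverse by percentile.

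The summit tags set the limit of these comparisons. Over the 7 pairs of lists, 639 ratios could be formed in the 4 windows, and the 95% interval left out 1 in 5, namely FOSL2 +45.9 kb for both isoforms against EV in DMSO, and FOSB -40.2 kb, FOSL1 +49.1 kb and FOSL2 +17.0 kb for p42 against p30 after tunicamycin. Of the 92 ratios of p42 to p30 in DMSO, 0 did so. No adjustment was made for the number of ratios. The interval of p30 to EV at FOSL2 +45.9 kb reached 0.965, close to 1. Ratios of p30 to EV scaled to depth had a median of -0.12 (log2) over all shared regions. Intervals were not computed with median-ratio scaling, so whether this one would still leave out 1 is not known.

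A region was also taken as standing apart when both lists of a line were at least 10 percentile points above, or below, all 4 other lists, with no peak set to 0, a rule added after the values were seen. By it p42 stood above in 14 of 142 regions (9.86%, all regions 7.67%), 3 around FOS, 6 around FOSB, 4 around FOSL1 and 1 around FOSL2. The p42 lists stood below in 0 regions (all regions 1.59%). For p30 it was 1 above (FOS +36.6 kb, all regions 0.953%) and 3 below (FOSB -39.3 kb, FOSB -36.8 kb and FOSL2 +68.9 kb, all regions 0.841%). For EV it was 0 above (all regions 0.875%) and 2 below (FOSL2 -1.7 kb and FOSL2 +55.9 kb, all regions 1.18%). Within 100 bp of their summits, 1 of the 14 regions had a CEBP:AP1 match, 2 a TRE and 3 a C/EBP motif. Of these matches, the TRE at FOSB -40.2 kb and the C/EBP motif at FOSL1 +32.8 kb lie outside the called region. Over all regions, CEBP:AP1, the TRE and the C/EBP motif were found in 1.16%, 9.48% and 13.1%. Their shares over all regions standing above in p42 were not counted. With lists trimmed to equal size, 7 of 142 regions stood above in p42 and 2 below. The shares of all regions given here belong to the full lists and are not given for trimmed ones.

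**Figure D2:**
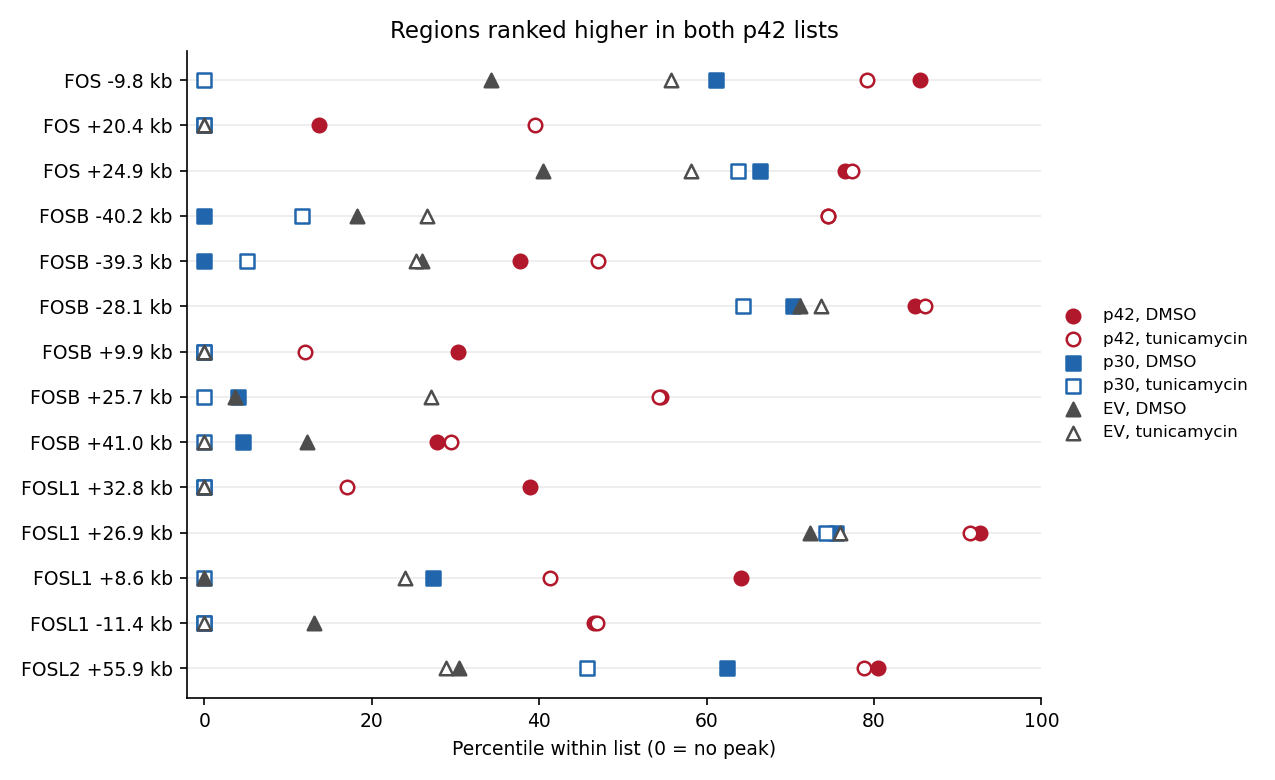
The 14 regions (y) that both p42 lists ranked at least 10 points above the 4 other lists are plotted by percentile within list (x, 0 for no peak). Circles are p42, squares p30 and triangles EV, filled for DMSO and open for tunicamycin; FOSB -40.2 kb shows the widest gap.

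Tunicamycin left most of these regions in place. In p42 cells 5 of 122 regions (4.10%) had a peak after tunicamycin only, against 11.6% of all regions, and 17 (13.9%) in DMSO only, against 27.5%. In p30 cells 11 of 111 (9.91%) were gained, against 13.2%, and 12 (10.8%) lost, against 23.6%. In EV cells 11 of 110 (10.0%) were gained, against 18.8%, and 8 (7.27%) lost, against 16.3%. The tunicamycin list was the deeper of the pair only in EV cells, with 25.1 against 22.2 M tags, while it was the shallower in p42 (25.4 against 30 M) and p30 (23.1 against 26.5 M). With lists of equal size the gained and lost shares were 2.83% and 12.3% in p42, 11.1% and 8.33% in p30 and 8.33% and 9.26% in EV cells, so that the direction turned in p30 and in EV cells. With the threshold scaled to depth it did not turn in any line. Where a region was called under both treatments, the tunicamycin list ranked it higher in 30 of 100 regions in p42 cells (30.0%, all regions 38.9%), in 32 of 88 in p30 cells (36.4%, all regions 39.3%) and in 59 of 91 in EV cells (64.8%, all regions 53.2%). Around FOS this was 14 of 19 regions in EV cells, against 10 of 22 in p42 and 6 of 19 in p30 cells. At least 10 points above all DMSO lists in the 3 tunicamycin lists stood 1 region, FOS -41.1 kb, with 6 tags in p42 and no peak in p30 and EV in DMSO and 8, 8 and 9 tags after tunicamycin (all regions 0.307%), and 0 stood below (0.80%).

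The motifs of the family's own regulators were counted within 100 bp of the summits of all 142 regions, on both strands. CEBP:AP1 was found in 4 (2.82%, all regions 1.16%), and 3 of these were called throughout, FOS +20.4 kb being the exception. The TRE was found in 12 (8.45%, all regions 9.48%), 5 of them around FOSL1, 3 each around FOSB and FOSL2 and 1 around FOS. The CRE core TGACG was found in 25 (17.6%, all regions 7.60%), and the full CRE TGACGTCA in 1, at FOSL2 -33.0 kb. The CArG box was found in 4 (2.82%, all regions 1.10%), each with a peak in all 6 lists, 2 around FOS, 1 around FOSB and 1 around FOSL1. The C/EBP motif was found in 16 (11.3%, all regions 13.1%) and in 5 of the 25 p42-only regions, where its share over all p42-only regions was 19.8%. The ATF4 composite TGATGCAA was found in 1, at FOS +23.1 kb. The ETS motif CCGGAAG stood in 6 (4.23%, all regions 1.5%) and the GC box in 31 (21.8%, all regions 7.96%). The CRE contains the TGACG core, and C/EBP matches can overlap CEBP:AP1 and ATF4 matches, so that these counts are not separate.

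Genes that work with the FOS family were given in the same way, with windows of 50 kb on each side. The dimer partners JUN, JUNB and JUND had a promoter peak in all 6 lists, and 16 of 84 regions (19.0%) were called with p42 but not p30 in DMSO, and 8 (9.52%) the reverse, both below the 30.8% and 14.5% of all regions. The promoters of SRF, ELK1, ELK3, ELK4, MRTFA and MRTFB, which act on the CArG box, were called in all 6 lists, with 42 p42-only (26.3%) and 19 p30-only (11.9%) regions among 160. Of 10 other immediate early genes 9 had a promoter peak in all 6 lists, with 45 (20.6%) and 22 (10.1%) among 218, again below all regions, and ATF3 had none at its annotated start. The percentile of p42 minus p30 in DMSO had a median of 1.38 over the JUN genes, 0.071 over the SRF list, 2.34 over the other immediate early genes and 0.159 over the FOS family, beside 1.11 over all protein-coding genes. EGR3 was the lowest of these genes (-29.2 points) and EGR2 the highest (14.2), and the FOS family lay between -3.40 (FOSL1) and 5.58 (FOSB). Each gene was given here by its stronger promoter region, at +1.3 kb for FOSB, while the region over the FOSB start was at -11.1.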

How the data were processed

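ATAC-seq peak lists of 6 conditions were used, each made by the authors from 2 pooled replicate libraries. Per the labels and the study's methods, reads were trimmed (Trim Galore 0.6.6), aligned to hg38 (Bowtie2 2.4.4), freed of duplicates (Picard) and called with MACS2. Whether cut positions were shifted is not given in the sources used here. The deposited values were the fold enrichment at the summit, a ratio of pileup to local background, and the −log10 of the p and q values; none is normalized between lists. Fold and −log10 p were solved together for the whole number of tags at the summit, which fitted 100% of peaks within 0.001. Depth was estimated from the lowest background over 2700000000 bp. With duplicates removed a summit cannot pass 114 to 120 tags, and the highest in the 4 windows held 55. Raw tags of strong regions could be near equal in lists of unequal depth. FOS -19.7 kb held 45, 48 and 44 in p42, p30 and EV in DMSO. Whether the ceiling affected such regions and their depth-scaled ratios was not tested.

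Common regions, percentiles, tags, the 1.5-fold limit and motif counts were computed with Python 3.11.15, numpy 2.4.6, scipy 1.17.1, pandas 2.3.3 and matplotlib 3.10.9, and the solving and joining steps were tested on simulated data. A promoter was 1000 bp on each side of the start. Tag ratios have exact conditional binomial 95% intervals. The regions named singly were taken from the promoters, the 3 of highest mean percentile in each window, the 2 with the largest and the 2 with the smallest p42 minus p30 percentile in DMSO, and those called in both lists of 1 line, or all 3 of 1 treatment, only; those standing apart by the 10-point rule, with a CEBP:AP1 match or with a ratio interval without 1 were added after the values were seen. Members and lists were chosen with earlier results of these data known. Alternatives were a −log10 q of at least 10, equal list sizes (187339 peaks), a depth-scaled threshold, 50% overlap, flanks of 25 and 100 kb, 500 bp promoters, rank by fold and median-ratio scaling. Expression and binding data were not used here, and a few genes and 1 sequence of the lists are not reported here.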

Additional observations from a re-analysis of the deposited data

Results flagged for a closer look

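At 3 promoters the percentile changed with tunicamycin in opposite directions in different lines. Each line is 1 pooled list per treatment, and none of these differences was tested. The lists also changed in length in opposite directions, and the median change over all regions called under both treatments was -2.94, -1.81 and 0.752 points for p42, p30 and EV, against which these values are to be read. At the FOS promoter the change from DMSO to tunicamycin came to -7.11, -8.16 and 7.79 points with p42, p30 and EV, so that p42 minus EV was -14.9 and p30 minus EV was -15.9. At the region over the FOSB start the changes were 6.29, -11.1 and 7.93, a difference of 17.4 for p42 minus p30 and of -19 for p30 minus EV. The stronger FOSB region at +1.3 kb moved the other way in each line, by -3.68, 3.93 and -1.3 points. At the FOSL2 start they were -6.85, 4.02 and 6.0, a difference of -10.9 for p42 minus p30 and of -12.8 for p42 minus EV. At the FOSL1 start the changes were 7.73, 0.018 and 6.84, all upward. In summit tags per 10 M tags the changes were small against counting error: the tunicamycin to DMSO ratio at the FOS promoter was 0.969 in p42 (0.610 to 1.53), 0.963 in p30 (0.601 to 1.53) and 1.11 in EV (0.677 to 1.85).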

How the results depend on the processing

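No paired analysis was possible because each list pools both replicates of its condition, and for the same reason no replicate could be left out. Of 119 recomputed values for 30 results, 91 stayed within the limits set, 27 moved beyond them and 1 turned in sign. Shares of all regions are not given beside the recomputed values. With only peaks of a −log10 q of at least 10, the share of regions called in p30 and not in EV in DMSO was 18.8%, and in p30 cells 1.54% were called after tunicamycin only and 18.5% in DMSO only. With equal list sizes the p42-only share was 12.4% against EV in DMSO and 8.33% against p30 after tunicamycin, where the p30-only share of 13.9% was then the larger. The larger side also turned for p30 against EV in DMSO (9.17% and 11.9%) and for gained against lost regions in p30 (11.1% and 8.33%) and EV cells (8.33% and 9.26%). With 50% overlap the p30-only share against p42 in DMSO was 12.4% and the p42-only share against EV was 29.6%. With flanks of 25 kb the EV-only share in DMSO was 2.63% against p42 and 4.48% against p30, the p30-only share was 2.86% against p42 after tunicamycin, and 1.54% were called after tunicamycin only in p30 cells. The percentile of p42 minus p30 in DMSO at the FOS promoter, -1.27 points, came to -3.41 when ranked by fold, -4.84 at a −log10 q of at least 10 and -4.13 with equal list sizes; at the FOSB start, -11.1, to -20 by fold and -22.5 with equal sizes; at the FOSL1 start, -3.40, to -2.33, -11.8 and -8.90; and at the FOSL2 start, 1.59, to 1.33, 2.69 and, with equal sizes, to -1.58, a change of sign. The cause was not tested. The count of regions standing above in p42 was 14, 7 with equal list sizes and 10 ranked by fold, and that of regions standing below in p42 was 0, 2 and 1, both added after the values were seen. A flank of 100 kb, the depth-scaled threshold, 500 bp promoters and median-ratio scaling moved none of the shares and promoter values beyond the limits. Summits of at most 55 tags limit every ratio.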
